A study of Mus musculus with 9 samples.

Results

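The 10 genes described here encode the proteins with which the kidney takes calcium and magnesium back from the urine. They were chosen by name, as every row of the deposited gene table whose symbol is Casr, Cldn16, Cldn14, Trpv5, Trpv6, Calb1, S100g, Slc8a1, Atp2b1 or Trpm6, and all 10 were found among its 23420 genes. RNA was sequenced from pieces of kidney cortex of about 50 mg from male C57/BL6 mice on chow: 4 mice that had no food for 16 h (fasted) and 5 mice that ate freely (fed), with 1 library per mouse. The labels give no transgene or drug for either group, no age, litter or hour of collection, and p-values measure the spread between these mice. Levels are normalized counts, which are reads divided by 1 size factor per library, and 1 read was worth 0.744 to 1.32 of them.

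Filtered calcium and magnesium are reclaimed in several stretches of the tubule. In the thick ascending limb both ions pass between cells, driven by a voltage across the epithelium, through tight junction pores that contain claudin-16, and the calcium-sensing receptor lowers this flow when blood calcium is high, partly by way of claudin-14. In the distal convoluted and connecting tubules calcium passes through the cells: it enters by TRPV channels, is carried by calbindins, and leaves by a sodium-calcium exchanger and a calcium pump. Magnesium enters distal convoluted tubule cells through TRPM6. These last steps are under the control of hormones, among them parathyroid hormone and vitamin D.

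In fasted kidneys Slc8a1, the exchanger that moves calcium out of the cell, was lower, and Trpm6, the magnesium channel, was higher. The mean of Slc8a1 in fasted mice was 0.650 of that in fed mice, and the mean of Trpm6 was 1.34 times that in fed mice. The other 5 distal members did not pass the test, and neither did Casr and Cldn16 of the thick limb, while Cldn14 was too low to be tested. A gene was tested when its mean over the 9 libraries was at least 10 normalized counts, and called changed when limma gave a Benjamini-Hochberg adjusted p under 0.05 over all 15098 genes tested. By that rule 10.97% of all genes tested were called, 5.72% as higher and 5.25% as lower in fasted kidneys, against 2 of the 9 members tested, 1 in each direction. At an unadjusted p under 0.05 there were 5 of the 9 members and 26.8% of all genes tested. With a list this short, chosen with results of these data known, neither count sets the members apart from other genes.

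**Figure D1:**
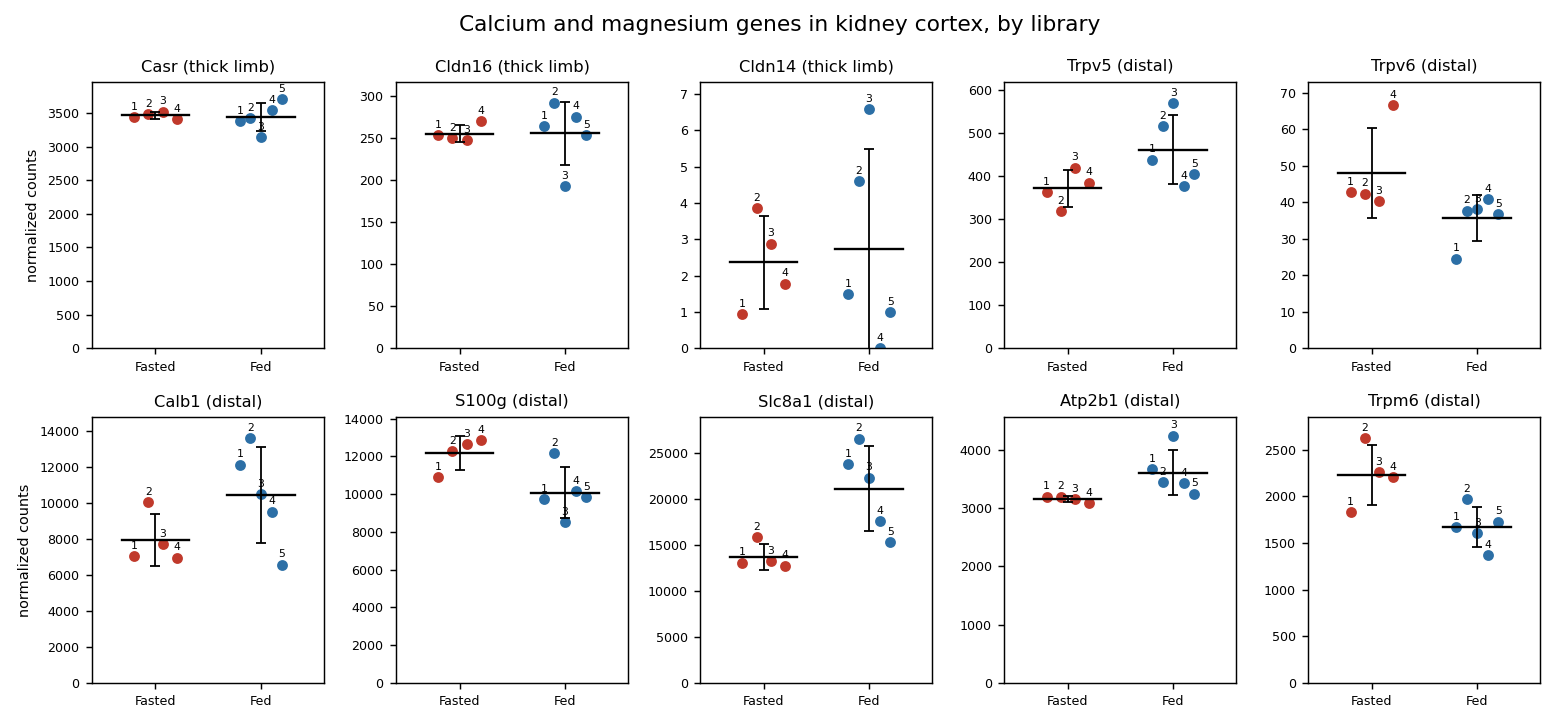
Normalized counts (vertical axes, linear, from 0) of the 10 genes in each library, with fasted mice left and fed mice right, digits for the mouse, and bars for the group mean and SD (cut at 0 for Cldn14). Slc8a1 lay between 12780.1 and 15842 in fasted mice and between 15302 and 26597 in fed mice, while Casr lay within 3143 to 3707 in all 9 libraries.

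Levels per kilobase of exon ordered the genes over a wide range. The length used was that of all annotated exons of a gene, merged over its transcripts. It ran from 0.48 kilobases for S100g to 18.8 kilobases for Slc8a1. A gene whose kidney transcripts hold only part of these exons would be understated, so the order is a rough one. The mean over all libraries was 22941 normalized counts per kilobase for S100g, 1930 for Calb1, 949 for Slc8a1 and 732 for Casr. Trpm6 with 249, Atp2b1 with 224 and Cldn16 with 218 lay close together, followed by Trpv5 with 130, Trpv6 with 10.5 and Cldn14 with 1.21. The group means of neighbours in this order lay differently in places: Slc8a1 and Casr had 731 and 735 per kilobase in fasted mice, against 1124 and 730 per kilobase in fed mice. Trpm6, Atp2b1 and Cldn16 had 289, 207 and 218 per kilobase in fasted mice, against 216, 237 and 218 in fed mice.

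The defining markers of the segments that hold these genes were present. Slc12a1, the sodium-potassium-chloride cotransporter of the thick limb, had 50565 ± 8906 normalized counts in fasted and 46254 ± 3591 in fed mice (mean ± SD, n = 4 and 5), an adjusted p of 0.594 in limma. Slc12a3, the sodium-chloride cotransporter of the distal convoluted tubule, had 27514 ± 3008 in fasted and 28682 ± 3826 in fed mice (limma, adjusted p = 0.793). Pvalb, parvalbumin of the early distal convoluted tubule, had 223 ± 51.0 in fasted and 295 ± 77.8 in fed mice (limma, adjusted p = 0.253). Over the whole marker lists, 0 of 6 distal convoluted tubule genes and 0 of 5 connecting tubule genes were called. For the distal convoluted tubule list the summed level was 49475 to 64158 in fasted against 55354 to 67429 in fed mice. For the connecting tubule list it was 26244 to 31784 in fasted against 25858 to 27084 in fed mice. Most of this sum was Klk1, with 20871 to 26200 in fasted and 19810 to 21670 in fed mice. Of 6 thick limb markers 1 fell, Ptger3, and the summed level was 150266 to 185359 in fasted against 121691 to 161959 in fed mice. Umod and Slc12a1 made up most of that sum, so such sums describe the most abundant genes of a list. Aqp2, the water channel of the collecting duct, had 2528 ± 146 in fasted and 3397 ± 858 in fed mice (limma, adjusted p = 0.146). Some markers of other cells were called too. The 6 proximal tubule markers had a summed level of 331687 to 379872 in fasted against 380234 to 545663 in fed mice, with no overlap, 2 fallen and a median log2 change of -0.41. Of 6 intercalated cell markers 2 fell, of 4 fibroblast markers 2 rose and 1 fell, of 5 endothelial markers 1 rose and 1 fell, of 4 thin limb markers 1 fell, and of 3 adipocyte markers tested 2 rose. The part of these other cells in the results below was not tested. The parathyroid genes Pth and Gcm2 were at 0 in every library. In bulk tissue, fewer cells of a type and less RNA per cell cannot be told apart.

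Among the thick limb genes, Casr encodes the calcium-sensing receptor, a G protein-coupled receptor of the basolateral membrane. The gene lies at chr16:36493696-36562141 on the minus strand of GRCm38 (GENCODE M21, which is used for all gene positions here). Casr had 3446, 3484, 3525 and 3412 normalized counts in the 4 fasted mice, against 3386, 3427, 3143, 3549 and 3707 in the 5 fed mice. The fasted values lay inside the fed range, and the fasted mice were close to each other, with a coefficient of variation of 1.40% against 6.07% in fed mice. The log2 change, fasted over fed, was 0.01 (SE 0.06), with a 95% interval of -0.12 to 0.14 (limma, adjusted p = 0.923, exact permutation p = 0.778).

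Cldn16, the claudin of the paracellular calcium and magnesium pore, lies on the same chromosome at chr16:26463135-26482765 on the plus strand. It had 254, 251, 248 and 270.3 normalized counts in fasted mice, against 264, 293, 193, 276 and 254 in fed mice. The means were 256 ± 9.92 in fasted and 256 ± 37.9 in fed mice, and all fasted values lay inside the fed range. The log2 change was 0.01 (SE 0.12), with an interval of -0.25 to 0.27 (limma, adjusted p = 0.961, exact permutation p = 0.944), and its sign turned negative in edgeR, DESeq2 and voom on the recovered reads.

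Cldn14, whose protein closes the claudin-16 pore, lies at chr16:93919031-94008837 on the minus strand. It was near the limit of detection, with 1, 3, 3 and 2 reads in fasted mice, against 2, 5, 5, 0 and 1 reads in fed mice. A difference in Cldn14 was not detectable at this depth, and the gene was not tested. Of the 2 thick limb members tested 0 were called, against 10.97% of all genes tested, and 2 genes are too few to set the thick limb apart. In the wider list of thick limb transport and tight junction genes, described below, 3 of 11 were called.

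Slc8a1 encodes the sodium-calcium exchanger of the basolateral membrane, an exit for calcium in the distal tubule that is also active in heart and smooth muscle. The gene lies at chr17:81373105-81738377 on the minus strand. Fasted mice had 13106, 15842, 13237 and 12780.1 normalized counts, against 23862, 26597, 22358, 17603 and 15302 in fed mice. The groups overlapped in 1 place: Fed 5 lay below Fasted 2, and the other 4 fed mice lay above every fasted mouse. The means were 13741 ± 1413 in fasted and 21145 ± 4617 in fed mice (SD, n = 4 and 5), and the log2 change was -0.60 (SE 0.15, 95% interval -0.93 to -0.27, limma adjusted p = 0.0286). An exact two-sided permutation test over the 126 ways to divide the libraries gave p = 0.0318, where the smallest p possible is 0.0159. Permutation p-values here are not adjusted for the number of genes.

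The call on Slc8a1 was lost in 6 of the 9 fits that left out 1 library. Those 9 fits called 861 to 1959 of all genes, against 1656 with every library. The Slc8a1 call was lost without Fasted 1 (adjusted p = 0.075), Fasted 3 (0.071), Fasted 4 (0.088), Fed 1 (0.071), Fed 2 (0.055) or Fed 3 (0.052). It was kept without Fasted 2 (0.038), Fed 4 (0.027) or Fed 5 (0.0058), all in limma. The log2 change stayed between -0.71 and -0.51 over these 9 fits. The fed mice themselves were uneven, and the estimate was -0.82 against Fed 1 to Fed 3 alone and -0.26 against Fed 4 and Fed 5 alone. Fed 1 to Fed 3 were the highest of all libraries in Slc8a1, Calb1, Trpv5 and Atp2b1, so that these subsets describe the spread of the fed mice and test nothing. The smooth muscle and mesangium markers, another site of this exchanger, had a summed level of 1838 to 2118 in fasted and 1529 to 2691 in fed mice, with 0 of 4 called, and their part in the result was not tested. Of the exon sequence of Slc8a1, 1.33% of 50-base stretches also occur in other genes, and 1.57% of its exon bases overlap the gene AC122399.1 on the opposite strand.

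Trpm6 encodes the magnesium channel of the apical membrane of the distal convoluted tubule, which carries a kinase domain. The gene lies at chr19:18749983-18892511 on the plus strand. Fasted mice had 1833, 2625, 2257 and 2204 normalized counts, against 1672, 1974, 1606, 1370.1 and 1729 in fed mice. The groups overlapped in 1 place: Fasted 1 lay below Fed 2, and the other 3 fasted mice lay above every fed mouse. The means were 2229.8 ± 324 in fasted and 1670.2 ± 218 in fed mice, and the log2 change was 0.41 (SE 0.12, 95% interval 0.16 to 0.67, limma adjusted p = 0.0427, exact permutation p = 0.0238). The call was lost without Fasted 2 (adjusted p = 0.113), Fasted 3 (0.098), Fasted 4 (0.106), Fed 1 (0.084), Fed 3 (0.070), Fed 4 (0.071) or Fed 5 (0.051), and kept without Fasted 1 (0.027) or Fed 2 (0.032). The log2 change stayed between 0.33 and 0.51 over these 9 fits, and was 0.34 against Fed 1 to Fed 3 alone and 0.52 against Fed 4 and Fed 5 alone. Both the Trpm6 and the Slc8a1 call were also lost in limma without a variance trend (adjusted p = 0.077 for Trpm6 and 0.053 for Slc8a1). The authors' deposited table, which pulls its log2 changes towards 0, gives 0.39 for Trpm6 (adjusted p = 0.0102) and -0.56 for Slc8a1 (adjusted p = 0.000869).

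The promoters of these called genes are shown because they moved in opposite directions. Each window holds the 250 bases before the start of the gene in RefSeq's GRCm38.p6 annotation, read 5′ to 3′ on the strand of the gene. The Slc8a1 window is chr17:81738388-81738637 on the minus strand and the Trpm6 window is chr19:18749480-18749729 on the plus strand. Both strands were searched for TATAAA (the TATA box), GTAAACA (the forkhead core), AGGTCA (a nuclear receptor hexamer), CACGTG (an E-box) and TGACG (the core of the cyclic AMP element), which would be in capitals, and neither window holds any of them.
Slc8a1: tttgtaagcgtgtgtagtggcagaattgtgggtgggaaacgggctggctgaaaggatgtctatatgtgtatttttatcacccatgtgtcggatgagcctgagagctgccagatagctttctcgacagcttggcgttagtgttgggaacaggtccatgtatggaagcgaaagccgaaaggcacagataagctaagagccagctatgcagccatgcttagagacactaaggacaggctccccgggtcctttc
Trpm6: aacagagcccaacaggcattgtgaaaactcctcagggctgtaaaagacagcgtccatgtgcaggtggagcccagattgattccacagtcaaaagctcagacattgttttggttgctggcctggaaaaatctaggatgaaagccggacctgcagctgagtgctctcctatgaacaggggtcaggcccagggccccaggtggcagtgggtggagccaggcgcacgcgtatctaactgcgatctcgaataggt
Of 32851 mouse promoter windows of this length, 12.4% hold TATAAA, 3.17% GTAAACA, 6.02% CACGTG and 17.8% TGACG, and AGGTCA is in 4607 of them. A match is a description of the letters only, and the absence of one says nothing of which factors act there. Whether these annotated starts are the ones used in kidney was not tested. GC content was 50.4% in the Slc8a1 window and 54.4% in the Trpm6 window.

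Dividing Trpm6 by Slc8a1 within each library removes the size factor. The ratio was 0.140, 0.166, 0.170 and 0.172 in fasted mice, against 0.0701, 0.0742, 0.0718, 0.0778 and 0.113 in fed mice. All fasted ratios lay above all fed ratios, with means of 0.162 ± 0.0151 in fasted and 0.0814 ± 0.0179 in fed mice. The pair was chosen for its opposite changes, so the separation is a description. Casr over Slc8a1, a thick limb gene over a distal one, was 0.263, 0.220, 0.266 and 0.267 in fasted mice, against 0.142, 0.129, 0.141, 0.202 and 0.242 in fed mice. Here Fed 5 lay above Fasted 2, the same overlap as in Slc8a1 itself.

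**Figure D2:**
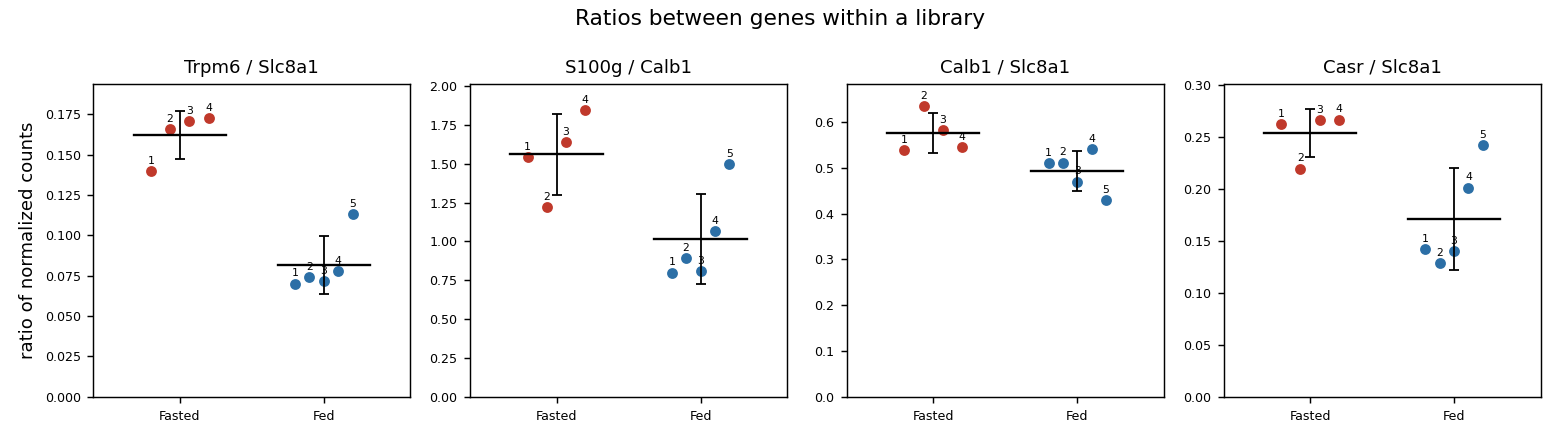
Ratios of normalized counts between pairs of genes within each library (vertical axes), fasted mice left and fed mice right, with digits for the mouse and bars for the group mean and SD. For Trpm6 over Slc8a1 the fasted mice lay between 0.140 and 0.172 and the fed mice between 0.0701 and 0.113, while S100g over Calb1 overlapped between the groups.

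**Figure D3:**
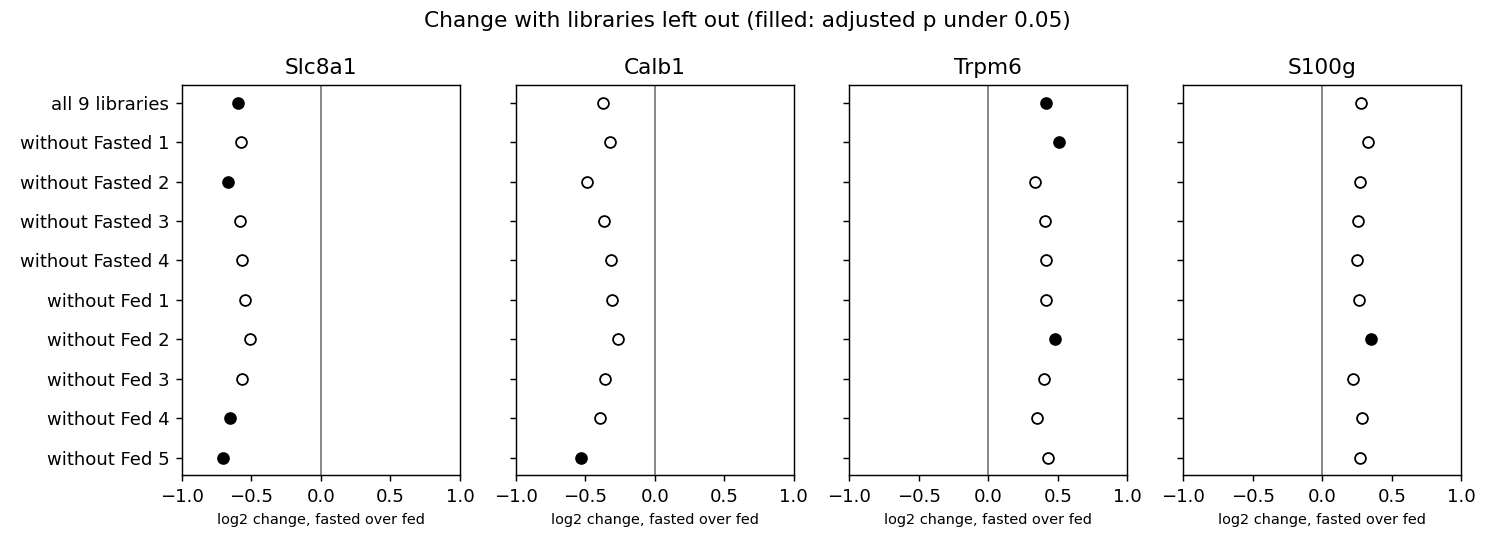
Log2 change, fasted over fed (horizontal axes), of Slc8a1, Calb1, Trpm6 and S100g with all libraries and with each library left out in turn (rows), with filled points where limma's adjusted p was under 0.05. With 1 library left out Slc8a1 stayed between -0.71 and -0.51 and Trpm6 between 0.33 and 0.51, and each lost its call in most of these 9 fits.

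Trpv5 and Trpv6 encode the apical channels through which calcium enters distal cells, Trpv5 being the main one of the kidney and Trpv6 that of the intestine. The genes are neighbours, at chr6:41652173-41680769 and chr6:41620624-41636405, both on the minus strand. Trpv5 had 362, 318, 419 and 384 normalized counts in fasted mice, against 438, 516, 569.6, 377 and 405 in fed mice. Its groups overlapped, with Fed 4 and Fed 5 inside the fasted range, and its means were 371 ± 42.6 in fasted and 461 ± 79.9 in fed mice. The log2 change was -0.30 (SE 0.13, 95% interval -0.59 to -0.02), which did not pass over all genes (limma, adjusted p = 0.161). The exact two-sided permutation p was 0.0794.

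Trpv6 had 42.8, 42.4, 40.3 and 66.7 normalized counts in fasted mice, against 24.6, 37.7, 38.1, 40.8 and 36.8 in fed mice. These values stand on 46, 33, 42 and 75 reads in fasted mice, against 33, 41, 29, 38 and 37 reads in fed mice. Fasted 4 was the highest and Fed 1 the lowest, and the remaining 7 libraries lay between 36.8 and 42.8. The log2 change was 0.41 (SE 0.21, 95% interval -0.05 to 0.87, limma adjusted p = 0.235). The exact permutation p was 0.0238, the same as for Trpm6. Trpv6 over Trpv5 was 0.118, 0.134, 0.0961 and 0.174 in fasted mice, against 0.0561, 0.0732, 0.0670, 0.108 and 0.0909 in fed mice, so that Fed 4 lay above Fasted 3 and the groups overlapped.

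The promoter windows of the neighbouring channels are shown because they share no motif of those searched, and that of S100g because S100g also lay higher in fasted mice. The windows are chr6:41680724-41680973 for Trpv5, chr6:41636406-41636655 for Trpv6 and chrX:162964600-162964849 for S100g, all on the minus strand of GRCm38.p6, with matches in capitals.
Trpv5: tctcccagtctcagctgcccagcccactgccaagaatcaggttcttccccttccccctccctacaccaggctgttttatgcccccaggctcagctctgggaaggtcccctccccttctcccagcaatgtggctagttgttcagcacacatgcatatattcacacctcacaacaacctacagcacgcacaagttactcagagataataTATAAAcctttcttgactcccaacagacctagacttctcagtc
Trpv6: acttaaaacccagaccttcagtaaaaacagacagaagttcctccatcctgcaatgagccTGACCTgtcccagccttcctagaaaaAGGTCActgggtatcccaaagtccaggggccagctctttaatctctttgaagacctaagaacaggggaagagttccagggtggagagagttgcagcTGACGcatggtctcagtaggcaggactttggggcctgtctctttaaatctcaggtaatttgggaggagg
S100g: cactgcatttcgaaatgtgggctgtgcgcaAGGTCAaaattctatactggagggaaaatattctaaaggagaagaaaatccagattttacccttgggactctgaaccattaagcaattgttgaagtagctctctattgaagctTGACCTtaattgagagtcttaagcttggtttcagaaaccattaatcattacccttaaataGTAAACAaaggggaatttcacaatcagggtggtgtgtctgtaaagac
Trpv5 holds a TATAAA that begins 43 bases before the start. Trpv6 holds AGGTCA 165 bases before the start and, on the opposite strand, 191 bases before it, with TGACG at 69 bases. S100g holds GTAAACA 47 bases before the start and AGGTCA at 220 bases and, on the opposite strand, at 107 bases. No match overlaps another in these windows. RefSeq windows were found for 9 of the 10 members, all but Calb1, and CACGTG was in none of them.

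Calb1 and S100g encode the larger and the smaller calbindin, which bind calcium in the cytosol and carry it across the cell. Calb1 lies at chr4:15881264-15908064 on the plus strand and had 7064, 10055, 7717 and 6973 normalized counts in fasted mice, against 12155, 13602, 10499, 9529.7 and 6578 in fed mice. Fed 5 was the lowest library of all, and Fasted 2 lay above Fed 4 and Fed 5. The means were 7952 ± 1440.4 in fasted and 10473 ± 2678 in fed mice, with a log2 change of -0.37 (SE 0.19, 95% interval -0.79 to 0.04, limma adjusted p = 0.237). Without Fed 5 the log2 change was -0.53 and the limma adjusted p 0.033. Calb1 passed in none of the other 8 fits that leave out a library, where the adjusted p reached 0.44. The exact permutation p was 0.175.

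S100g, on chrX:162961992-162964599 on the minus strand, had an estimate of the opposite sign that did not pass. It had 10909.6, 12266, 12649 and 12871 normalized counts in fasted mice, against 9725, 12169.9, 8499, 10174 and 9839.9 in fed mice. Fed 2 lay among the fasted mice and the other 4 fed mice lay below all of them. The means were 12174 ± 879 in fasted and 10082 ± 1328 in fed mice, with a log2 change of 0.28 (SE 0.10, 95% interval 0.06 to 0.49, limma adjusted p = 0.0949, exact permutation p = 0.0397). It passed without Fed 2 (adjusted p = 0.036) and in none of the other 8 fits that leave out a library. S100g over Calb1 was 1.54, 1.22, 1.64 and 1.85 in fasted mice, against 0.800, 0.895, 0.810, 1.07 and 1.50 in fed mice, and only Fasted 2 lay inside the fed range.

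Atp2b1 encodes a plasma membrane calcium pump found in many cell types, the other exit for calcium, and lies at chr10:98914406-99026143 on the plus strand. It had 3196, 3197, 3151 and 3085 normalized counts in fasted mice, against 3665, 3444, 4246, 3435 and 3248 in fed mice. Every fasted mouse lay below every fed mouse, and Atp2b1 was the one member whose groups did not overlap. Of all genes tested, 14.3% had groups that did not overlap in either direction, and 6.64% had every fasted library below every fed one. Beside these shares, 1 of 9 members does not set the members apart from other genes. The means were 3157 ± 52.8 in fasted and 3608 ± 386 in fed mice, with a log2 change of -0.19 (SE 0.08, 95% interval -0.35 to -0.02). The adjusted p was 0.145 in limma, and the exact two-sided permutation p was 0.0159, the smallest that 4 against 5 mice can give. Of its exon sequence, 1.27% of 50-base stretches occur in other genes.

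Set side by side, the estimates of the distal members were spread more widely than those of the 2 thick limb members tested. The 7 distal members had a median log2 change of -0.19 and a median size, without sign, of 0.37, with 3 above 0 and 4 below. The 2 thick limb members tested had a median log2 change of 0.01 and a median size of 0.01. Over all genes tested the median log2 change was 0.00 and the median size 0.16. The difference between the segments was not tested. Of the distal members for calcium entry, carriage and exit, the estimates of Trpv6 and S100g lay above 0. Those of Trpv5, Calb1, Slc8a1 and Atp2b1 lay below 0, and only Slc8a1 among them passed. The signs of estimates that did not pass cannot settle whether these genes moved together, and this was not tested.

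**Figure D4:**
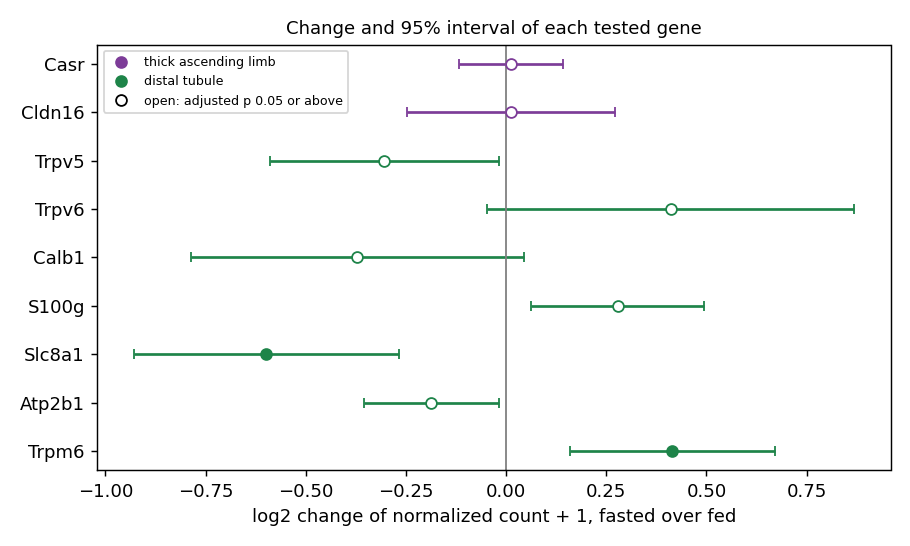
Log2 change, fasted over fed, with its 95% interval (horizontal axis) for the 9 members tested, coloured by segment, with filled points where limma's adjusted p was under 0.05. The interval of Casr runs from -0.12 to 0.14, that of Slc8a1 from -0.93 to -0.27 and that of Trpm6 from 0.16 to 0.67.

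The members also differed in which library was extreme. Fed 2 was the highest library in Slc8a1, Calb1 and Cldn16, and Fed 3 was the highest in Trpv5 and Atp2b1 and the lowest in Casr, Cldn16 and S100g. Fasted 4 was the lowest in Slc8a1 and Atp2b1 and the highest in S100g and Trpv6. Rn45s, a ribosomal RNA entry of the table, took the largest share of counts in Fed 3, 5.53% against 0.513% in the lowest fed library and 0.622% to 2.36% in fasted libraries. Without Fed 3 and Fasted 1, the libraries with the highest such shares, Slc8a1 had a log2 change of -0.55 and an adjusted p of 0.112, and Trpm6 had 0.49 and 0.042 (limma). The total reads were 18902645 to 27186745 in fasted and 19638174 to 32469467 in fed libraries.

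Genes that work with the members were read from 6 further lists of 56 genes, of which 52 were tested, 3 rose and 4 fell, against 10.97% of all genes called. Among the partners of the TRPV channels, S100a10, whose protein with annexin A2 helps carry Trpv5 and Trpv6 proteins to the membrane, had 2712 to 3422 normalized counts in fasted mice, against 1244 to 1877 in fed mice. Its means were 3082 ± 317 in fasted and 1517 ± 237 in fed mice, a log2 change of 1.03 (SE 0.11, limma adjusted p = 0.000424), and the call held in all 24 alternative settings. Anxa2 itself had 1006 ± 116 in fasted and 995 ± 160 in fed mice. Fkbp4, an immunophilin that binds Trpv5 protein, fell to 3747 ± 166 in fasted mice, against 5463 ± 763 in fed mice (log2 change -0.53, limma adjusted p = 0.0067). The other 8 partners did not pass, among them Klk1, the kallikrein of the connecting tubule, with 22965 ± 2373 in fasted and 21023 ± 765 in fed mice.

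Among the hormone genes 1 of 10 was called. Kl, which encodes klotho, a co-receptor for a phosphate hormone that also acts on Trpv5, had 16155 ± 1421 normalized counts in fasted and 29829 ± 4723 in fed mice (log2 change -0.87, SE 0.12, limma adjusted p = 0.00166). It lay between 14772 and 17919.8 in fasted mice, against 22139.5 to 34834 in fed mice, with no overlap. The vitamin D receptor gene Vdr was not called, with 7177 ± 996 in fasted and 6212 ± 1219 in fed mice.

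Of 11 thick limb transport and tight junction genes, 1 rose and 2 fell. Bsnd, the subunit barttin of the basolateral chloride channels, fell to 1074 ± 47.5 in fasted mice, against 1577 ± 77.7 in fed mice (log2 change -0.55, SE 0.06, limma adjusted p = 0.00043). Ptger3, a prostaglandin receptor, fell to 892 ± 90.9 in fasted mice, against 1435 ± 196 in fed mice (log2 change -0.68, limma adjusted p = 0.0036). Cldn3, another claudin, had 254 ± 17.4 in fasted and 181 ± 36.0 in fed mice (log2 change 0.50, limma adjusted p = 0.0355). The Cldn3 call was lost without Fasted 1 (0.058), Fasted 2 (0.072), Fasted 3 (0.082), Fasted 4 (0.111), Fed 1 (0.083), Fed 2 (0.069), Fed 3 (0.060) or Fed 5 (0.054). Umod, uromodulin, the most abundant gene of the list, had 101677 ± 7874 in fasted and 87994 ± 11609 in fed mice (limma, adjusted p = 0.300).

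Of 15 genes of the distal convoluted tubule and magnesium handling, 1 was called, against 10.97% of all genes tested. Slc41a1, a magnesium transporter of the plasma membrane, rose to 944 ± 61.5 in fasted mice, against 691 ± 49.7 in fed mice (log2 change 0.45, SE 0.08, limma adjusted p = 0.00447). Trpm6 and Slc41a1, both higher in fasted mice, were the magnesium transport genes called among those listed. Cnnm2, Trpm7, Cnnm4 and Slc41a3 of the same list were not called, with log2 changes of -0.23, -0.07, 0.14 and 0.16. Egf, the growth factor that stimulates Trpm6 protein, had 69322 ± 13632 in fasted and 56418 ± 8042 in fed mice (limma, adjusted p = 0.261). The median log2 change of these 15 genes was -0.09.

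The remaining calcium pumps, exchangers and buffers were 8 genes, of which 4 were tested and 0 called, with all 4 estimates below 0 and a median log2 change of -0.23. Atp2a2, the calcium pump of the endoplasmic reticulum, had 14279 ± 804 in fasted and 16688 ± 1827 in fed mice (limma, adjusted p = 0.135). Atp2b2, another plasma membrane calcium pump, had 156 ± 13.3 in fasted and 202 ± 34.3 in fed mice (limma, adjusted p = 0.111), and Calb2 was at 0 in every library. In the proximal tubule, where claudins also let calcium pass between cells, Cldn2 had 13475 ± 430 in fasted and 13710 ± 1196 in fed mice. Cldn12 had 2887 ± 94.2 in fasted and 3056 ± 430 in fed mice, and neither was called.

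**Figure D5:**
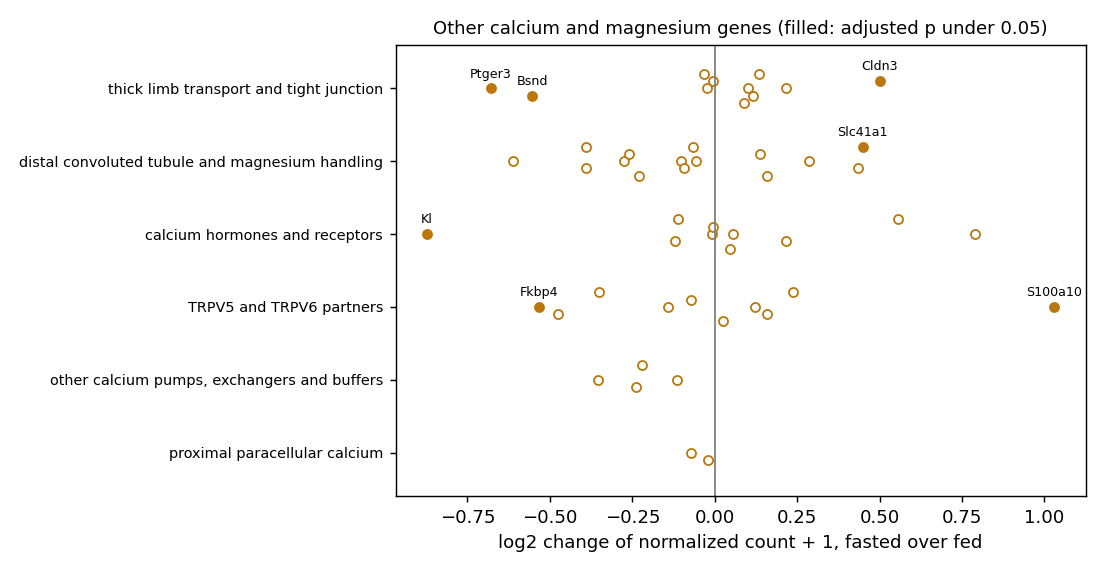
Log2 change, fasted over fed (horizontal axis), of the pathway genes tested in each list (rows), with filled points where limma's adjusted p was under 0.05. S100a10 lies farthest to the right at 1.03 and Kl farthest to the left among the called genes at -0.87.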

How the data were processed

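RNA sequencing libraries from kidney cortex of 4 fasted and 5 fed mice were compared. TRIzol extraction and TruSeq libraries are given per the labels' protocols. Per the submitters' processing notes, the authors used DESeq2 (version given as 3.5), HTSeq 0.9.1, TopHat2 2.0.9 and FastQC, with builds mm10 and hg19 listed and no role stated. The strand setting of counting is not given in the sources used here.

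In the deposited signal columns the authors divided read counts by a size factor for each library: 161194 of 161194 values above 0 (100.0%) were whole multiples of 1 read within 0.01 reads, which gave back the reads. Log2 fold changes and adjusted p-values in the deposited table are the authors' own. The number of sample columns not used was 0. The deposited score, log2 fold change over its standard error, and the deposited p-value were not used for calls.

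limma 3.58.1 with a trend was fitted in R 4.3.3 on log2(value + 1), two-sided, for genes averaging 10 or more normalized counts, with Benjamini-Hochberg adjustment and a threshold of 0.05. Log2 changes of low genes are understated on this scale. The steps were tested on simulated data. Alternatives were other filters, pseudocounts, scalings and thresholds, edgeR 4.0.16, DESeq2 1.42.0 and voom on recovered reads, and each library left out. Fed 1 to Fed 3 or Fed 4 and Fed 5 also served as the fed group, a split taken over from earlier work on these data. The labels do not explain this split, but the sample titles number Fed 1 to Fed 3 before the fasted mice and Fed 4 and Fed 5 after them. Positions are from GENCODE M21 and promoters from RefSeq. Named were all 10 members, every called pathway gene, in each pathway list the gene with the highest mean and that with the smallest adjusted p, and 6 segment markers. Anxa2, Vdr, Cyp27b1, Cyp24a1, Calb2, Cnnm2, Trpm7, Cnnm4 and Slc41a3 were named after their values were seen. The members, gene lists, subsets and motifs were chosen with earlier results of these data known.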

Additional observations from a re-analysis of the deposited data

Results flagged for a closer look

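In 48 groups of libraries searched, 5 held a library set apart from the rest of its group by a gap wide against the group's range (Dixon's 95% critical value), where chance gives about 1 in 20 groups. Trpv6 had 66.7 normalized counts in Fasted 4, against 40.3 to 42.8 in the other fasted mice, and 24.6 in Fed 1, against 36.8 to 40.8 in the other fed mice. Slc8a1 had 15842 in Fasted 2, against 12780.1 to 13237 in the other fasted mice. Fkbp4 had 3993 in Fasted 1, against 3640.3 to 3696 in the other fasted mice. Cldn3 had 244 in Fed 4, against 153 to 176 in the other fed mice.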

How the results depend on the processing

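The count of all genes changed, 1656, was 538 at an adjusted p under 0.01 and 2628 under 0.1, 1068 without Fed 3 and Fasted 1, 357 against Fed 4 and Fed 5 alone, and 861 to 1959 with each library left out. The 2 members called became 0 in limma without the trend, 0 at an adjusted p under 0.01, 1 without Fed 3 and Fasted 1, 0 against Fed 4 and Fed 5 alone, and 0 to 2 with each library left out. They became 3 at an adjusted p under 0.1, where S100g joined Slc8a1 and Trpm6. They also became 3 against Fed 1 to Fed 3 alone, where Slc8a1, Calb1 and Trpv5 passed and Trpm6 did not (0.34, limma adjusted p = 0.101). Fed 1 to Fed 3 were the highest of all libraries in Slc8a1, Calb1 and Trpv5. These passes therefore describe the spread of the fed mice and test nothing. In the fit of all libraries 5 of 9 members and 26.8% of all genes had an unadjusted p under 0.05. The 7 pathway genes called became 13 against Fed 1 to Fed 3 alone and 2 against Fed 4 and Fed 5 alone. Slc8a1 was called in 15 and Trpm6 in 14 of 24 alternative settings, and both kept their direction in all 24. Cldn16 changed sign to -0.0043 in edgeR, -0.0047 in DESeq2, -0.0024 in voom, -0.082 without Fed 3 and Fasted 1 and -0.049 against Fed 4 and Fed 5 alone, and ranged from -0.085 to 0.064 with each library left out. Casr changed sign to -0.017 without Fed 3 and Fasted 1 and -0.065 against Fed 4 and Fed 5 alone, and ranged from -0.020 to 0.039 with each library left out. The cause was not tested. Other scalings moved the median log2 change of all genes by less than 0.1. Depth limits Cldn14, with 0 to 5 reads per library, and Trpv6, with 29 to 75. No paired analysis was possible because the labels give no numbers shared between fasted and fed mice.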
